A study of Homo sapiens with 4 samples.

Results

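The genes described here are the inhibitors of cyclin-dependent kinases (CDKs) and the pocket proteins, taken by gene symbol from the deposited expression table. They are 10 genes of the 27694 in the table: CDKN1A, CDKN1B and CDKN1C of the CIP/KIP family, CDKN2A, CDKN2B, CDKN2C and CDKN2D of the INK4 family, and the pocket protein genes RB1, RBL1 and RBL2. They were measured by RNA-seq in LN229, an established human glioblastoma cell line grown with fetal bovine serum. Both groups are the same unmodified line: 2 libraries come from cells kept in vehicle (DMSO) for 24 h, and 2 from cells exposed over the same 24 h to UM-164 at 100 nM. UM-164 is a small-molecule inhibitor of the tyrosine kinase c-Src and of p38 MAP kinases. The study asked how it acts on the growth and cell cycle of glioma cells. Separate cultures behind the libraries are not mentioned in the sources, so the spread behind each p-value is that between libraries and could be technical.

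A cell leaves G1 when cyclin D with CDK4 or CDK6, and then cyclin E with CDK2, phosphorylate the pocket proteins. Unphosphorylated pocket proteins hold E2F transcription factors and keep genes of DNA replication and mitosis low, and phosphorylation releases that hold. INK4 proteins bind CDK4 and CDK6 and keep cyclin D away from them, whereas CIP/KIP proteins bind complexes of cyclins with CDKs and mainly block CDK2. Loss of CDKN2A and CDKN2B is among the most frequent lesions of glioblastoma. Much of the control of these proteins lies in phosphorylation and protein degradation, which RNA does not show.

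Values are FPKM, the fragment count of a gene relative to its transcript length and to the size of the library, as deposited. FPKM is per transcript length, so levels of different genes can be set side by side, but it carries no read counts and the depth behind each value is unknown. Over the whole table, the summed FPKM ran from 281619 to 318802 per library, and genes with a protein-coding transcript held 89.7% and 90.1% of it in the vehicle libraries and 83.4% and 81.7% in the UM-164 libraries. The part of this shift in the values below was not tested, but each fold change was also computed after rescaling protein-coding genes to the same sum. Of the glioma and glial markers, VIM, NES, SOX2, S100B, OLIG2, EGFR and CD44 were above a mean FPKM of 1, and GFAP and CHI3L1 were below 0.13 FPKM in each library. S100B, a glial calcium-binding protein gene, was higher, at 317 FPKM in vehicle and 547 in UM-164 libraries (log2 fold change 0.79, adjusted p = 0.0326 from limma). OLIG2 (0.97), VIM (-0.53) and NES (-0.44) did not overlap between the groups and did not pass the test. Summed over each list, vehicle and UM-164 libraries ranged from 16.8 to 18.7 and from 17.3 to 20.4 FPKM for 5 immune markers, where CD68 held nearly all of it and PTPRC stayed below 0.09. The 4 endothelial markers ranged from 0.266 to 0.365 and from 0.528 to 0.722, the 4 epithelial markers from 26 to 26.9 and from 23.0 to 35.8, mostly KRT18, and the 4 neuron markers from 4.92 to 5.02 and from 6.61 to 7.17. RBFOX3, PECAM1, CDH5, EPCAM and CDH1, which define neurons, endothelium and epithelium, lay below 0.26 FPKM in each library. Other genes of these lists were present and had both UM-164 values above both vehicle values without passing the test: SNAP25 at 2.60 and 3.23 against 3.94 and 4.19 FPKM, MAP2 at 1.91 and 1.5 against 2.81 and 2.12, and KRT19 at 1.45 and 2.0 against 2.47 and 2.49. The part of these marker values in the results was not tested.

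The test used limma on log2(FPKM + 0.5), restricted to the 11516 genes that averaged 1 FPKM or more, over which p-values were adjusted. Of the 10 members, 6 passed this filter and 4 did not. None of the 6 was called at an adjusted p under 0.05, higher or lower, where the same fit called 1.31% of all tested genes, 0.452% higher and 0.860% lower. At an unadjusted p under 0.05 from limma the count was 2 of 6, CDKN1A and CDKN2D, against 20.1% of all tested genes. CDKN1A and CDKN2D were also the 2 of 6 members whose UM-164 values were both lower than either vehicle value, a pattern of 25.5% of the tested table. CDKN1B and RBL2 were the 2 of 6 with both UM-164 values higher, a pattern of 27.7%. With 6 genes, such counts do not stand apart from the background. The median log2 fold change was -0.20 over the 6 members and 0.01 over all tested genes. With 2 libraries against 2, an exact two-sided permutation test cannot give a p below 0.33, so no single gene can pass by it.

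**Figure D1:**
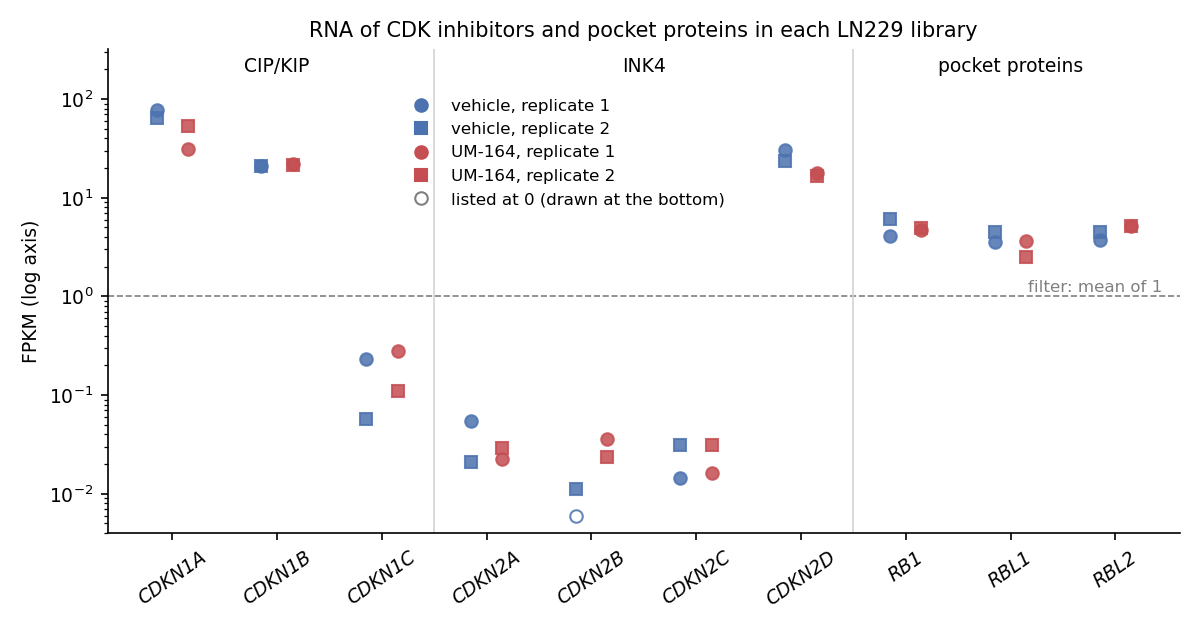
FPKM of each member in the 2 vehicle (blue) and 2 UM-164 (red) libraries, on a log axis, grouped by family, with open symbols for values listed at 0. CDKN1A, CDKN1B and CDKN2D sit above 16 FPKM and the pocket proteins between 2.5 and 6.1 FPKM, while CDKN1C, CDKN2A, CDKN2B and CDKN2C stay below 0.3 FPKM.

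The level alone divided the members into 3 tiers. In vehicle libraries CDKN1A was the most abundant at 70.7 FPKM, followed by CDKN2D at 27.1 and CDKN1B at 21.0. RB1, RBL2 and RBL1 followed at 5.09, 4.12 and 4.06 FPKM, and the libraries of these neighbours overlapped, so their order is not resolved. CDKN1C came next at 0.143 FPKM, and CDKN2A, CDKN2C and CDKN2B closed the order at 0.0381, 0.0229 and 0.00560 FPKM, with CDKN2A and CDKN2C overlapping. In UM-164 libraries CDKN1A was again highest at 42.6 FPKM, but CDKN1B at 21.8 now stood above CDKN2D at 17.1, and neither pair of neighbours overlapped. RBL2 at 5.16, RB1 at 4.83 and RBL1 at 3.10 FPKM did not overlap either. The summed FPKM of the 3 CIP/KIP genes was 98.3 and 85.3 in vehicle and 53.9 and 75.3 in UM-164 libraries, that of the 4 INK4 genes 30.5 and 23.8 against 17.7 and 16.7, and that of the 3 pocket protein genes 11.4 and 15.1 against 13.6 and 12.6. The inhibitor sums were thus below vehicle in both UM-164 libraries, and the pocket protein sum was within the vehicle range.

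Promoter windows show which of these genes carry the letters of cell cycle elements. RefSeq windows on GRCh38.p14, from 250 bases before to 50 bases after a start, were matched for 9 of the 10 members, all but CDKN1C, and the RB1 window lies inside the gene at an internal start and is not described. The 250 bases before the start are given for CDKN1A (chr6:36678464-36678713, plus strand) and CDKN2D (chr19:10568980-10569229, minus strand), whose UM-164 libraries were both lower. They are also given for RBL1 (chr20:37095998-37096247, minus strand) and RBL2 (chr16:53434221-53434470, plus strand), whose fold changes had opposite signs. The RBL1 libraries overlapped between the groups, and neither of these pocket protein genes passed the test. Capitals mark the letters searched on both strands, which are listed after the sequences.
CDKN1A: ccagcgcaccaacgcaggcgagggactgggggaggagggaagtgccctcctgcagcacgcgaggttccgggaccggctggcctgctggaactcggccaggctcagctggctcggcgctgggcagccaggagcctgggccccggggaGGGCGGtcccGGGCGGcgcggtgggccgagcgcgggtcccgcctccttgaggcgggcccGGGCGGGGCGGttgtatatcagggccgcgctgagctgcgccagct
CDKN2D: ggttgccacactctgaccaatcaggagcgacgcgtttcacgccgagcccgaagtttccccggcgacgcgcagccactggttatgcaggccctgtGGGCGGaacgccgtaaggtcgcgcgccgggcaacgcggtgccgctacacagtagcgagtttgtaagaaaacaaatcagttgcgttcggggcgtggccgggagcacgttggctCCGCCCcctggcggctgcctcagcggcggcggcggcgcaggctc
RBL1: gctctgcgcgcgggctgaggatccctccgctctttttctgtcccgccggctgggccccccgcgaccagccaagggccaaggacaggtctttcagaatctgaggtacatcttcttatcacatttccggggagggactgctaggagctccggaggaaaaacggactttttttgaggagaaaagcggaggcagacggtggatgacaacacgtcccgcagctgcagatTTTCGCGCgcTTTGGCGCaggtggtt
RBL2: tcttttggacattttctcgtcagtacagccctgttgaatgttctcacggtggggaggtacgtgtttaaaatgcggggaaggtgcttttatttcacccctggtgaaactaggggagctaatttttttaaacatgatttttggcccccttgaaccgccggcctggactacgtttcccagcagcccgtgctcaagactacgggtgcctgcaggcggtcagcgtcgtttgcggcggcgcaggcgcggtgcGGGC
The E2F letters TTTCGCGC, TTTGGCGC or TTTCCCGC were found in RBL1 only among the 8 windows read, as TTTCGCGC at base -26 and TTTGGCGC at base -16 from the start. They occur in 2.79% of all 27305 windows, in 5.12% of those of tested genes and in 13 of 20 windows of the E2F target list. The CHR letters TTTGAA or TTCGAA, an element that the DREAM complex reads in late cell cycle genes, were found in RBL2 only, at base 25 after the start. They occur in 16.6% of all windows, in 10.6% of those of tested genes and in 11 of 16 windows of the G2/M list. The SP1 and KLF letters GGGCGG were found 4 times in CDKN1A, where the copies at bases -45 and -40 overlap by a single letter, 3 times in CDKN2D, where the copy at base 11 lies after the start, and 2 times in RBL2, at base -4, across the start, and at base 8. They also occur at base -71 of CDKN1B and at bases -134 and -78 of CDKN2B, so that 5 of the 9 matched windows hold them, against 44.6% of all windows and 72.3% of those of tested genes. The AP-1 letters TGAGTCA and the TATA letters TATAAA were found in none of the 8 windows. They occur in 4.92% and 12.0% of all windows and in 2.9% and 5.01% of those of tested genes. The TEAD letters GGAATG were found in CDKN2B only, against 14.0% of all windows and 10.5% of those of tested genes. A match is a string of letters and not a measured site, and no match says only that these letters are not in this window. The CDKN2A window, at 21995275 to 21995574 on chromosome 9, lies at the upstream end of that gene. Any start inside CDKN2A was not read.

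CDKN1A (ENSG00000124762) encodes p21, the inhibitor that p53 induces after DNA damage and that also responds to growth factor and stress signals. It lies on chromosome 6 between bases 36676460 and 36687339 (GENCODE v29 on GRCh38, as for all members), and 4.79% of its exon bases are shared with the opposite-strand gene DINOL, itself at a mean of 0.115 FPKM. Its FPKM was 77.3 and 64.1 in vehicle and 31.4 and 53.7 in UM-164 libraries. The groups did not overlap, but the 2 UM-164 libraries stood further apart than the 2 vehicle libraries, at a mean of 42.6 ± 15.7 against 70.7 ± 9.30 (SD, n = 2 each). The log2 fold change was -0.77 (standard error 0.27, 95% interval -1.45 to -0.09) with an unadjusted p of 0.0331 and an adjusted p = 0.210 from limma, and 2.14% of tested genes had a lower fold change. UM-164 replicate 1 carried much of this value: it was -0.39 without that library and -1.15 without UM-164 replicate 2, and the adjusted p was 0.407 and 0.0517 in these fits. Neither UM-164 library held more CDKN1A RNA than a vehicle library.

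CDKN1B (ENSG00000111276) encodes p27, the CIP/KIP inhibitor of quiescent cells, which is set largely by the rate at which the ubiquitin ligase subunit SKP2 marks it for degradation. It lies on chromosome 12 from 12715058 to 12722371. Its FPKM was 20.8 and 21.1 in vehicle and 22.2 and 21.5 in UM-164 libraries. This was the tightest member: the groups did not overlap, yet the means differed by less than 1 FPKM. The log2 fold change was 0.06 (standard error 0.09, 95% interval -0.16 to 0.28, adjusted p = 0.748 from limma). That interval rests on the spread between libraries, which could be technical, and is not a bound on the effect. CDKN1C (ENSG00000129757), an imprinted gene for p57, the inhibitor of embryonic and differentiating tissues, lies on chromosome 11 from 2883213 to 2885773. Its FPKM was 0.230 and 0.0568 in vehicle and 0.282 and 0.111 in UM-164 libraries. These values overlapped, the replicates of each group differed more than the groups did, and CDKN1C did not enter the test. Of the summed CIP/KIP RNA, CDKN1A made up 78.6% and 75.2% in vehicle and 58.3% and 71.3% in UM-164 libraries, and CDKN1B nearly all of the rest.

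CDKN2D (ENSG00000129355) encodes p19INK4d, an INK4 inhibitor whose RNA is periodic through the cell cycle. It lies on chromosome 19 from 10566462 to 10569059. Its FPKM was 30.5 and 23.8 in vehicle and 17.7 and 16.6 in UM-164 libraries. The groups did not overlap, and the UM-164 libraries were close to each other. The group mean was 27.1 ± 4.74 in vehicle and 17.1 ± 0.754 in UM-164 libraries (SD, n = 2 each), so the UM-164 mean was 63.2% of that in vehicle. The log2 fold change was -0.64 (standard error 0.14, 95% interval -1.0 to -0.28) with an unadjusted p of 0.00618 and an adjusted p = 0.104 from limma, the smallest of the members, and 3.62% of tested genes had a lower fold change. It missed the threshold in each of 13 alternative fits, where its adjusted p ran from 0.0556, with protein-coding genes rescaled to the same sum, to 0.302.

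CDKN2D was in effect the only INK4 gene with RNA in these libraries, at 99.7% to 99.8% of the summed INK4 FPKM in vehicle and 99.5% to 99.6% in UM-164 libraries. CDKN2A (ENSG00000147889), which encodes both p16INK4a and, in another reading frame, the p53 activator p14ARF, had an FPKM of 0.0550 and 0.0211 in vehicle and 0.0224 and 0.0288 in UM-164 libraries. CDKN2B (ENSG00000147883), the gene of p15INK4b, which TGF-beta induces in epithelial cells, was listed at 0 and 0.0112 in vehicle and at 0.0360 and 0.0235 FPKM in UM-164 libraries. CDKN2C (ENSG00000123080), the gene of p18INK4c, had 0.0146 and 0.0312 in vehicle and 0.0162 and 0.0312 FPKM in UM-164 libraries. No library brought any of these above 0.06 FPKM. For CDKN2B the UM-164 libraries were both above the vehicle libraries, but at such values a few fragments decide the order and the depth is unknown. CDKN2A and CDKN2B also share closely similar sequence, so fragments of either could be counted for the other. With no filter on low values the 4 untested members, CDKN1C, CDKN2A, CDKN2B and CDKN2C, had log2 fold changes of 0.12, -0.03, 0.07 and 0.00 on the log2(FPKM + 0.5) scale, with adjusted p = 0.832, 0.817, 0.660 and 0.991 from limma. That scale shrinks any change of genes at this level, so these values say little either way. A mean FPKM under 1 is common in the table as a whole, at 58.4% of all genes and 34.97% of genes with a protein-coding transcript. CDKN2B, CDKN2C, CDKN2A and CDKN1C lay above 14.3%, 17.0%, 20.4% and 39.7% of all genes in mean level.

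CDKN2A spans 21967753 to 21995301 and CDKN2B spans 22002903 to 22009363 on chromosome 9. The long non-coding RNA gene CDKN2B-AS1 (ANRIL), on the opposite strand, spans 21994778 to 22121097. It runs across CDKN2B and overlaps only an edge of CDKN2A, sharing 7.88% of the exon bases of CDKN2A. CDKN2B-AS1 had 0.0312 and 0.0228 FPKM in vehicle and 0.0357 and 0.0325 in UM-164 libraries, as low as both inhibitors. MTAP, the methylthioadenosine phosphorylase gene 30.1 kb away on the other side of CDKN2A, had 1.29 and 1.68 FPKM in vehicle and 2.0 and 2.35 in UM-164 libraries. On the far side, DMRTA1, 437.5 kb from CDKN2B, had 0.923 and 1.25 FPKM in vehicle and 1.33 in both UM-164 libraries, and ELAVL2 beyond it 0.560 to 0.735 in all 4. Further out past MTAP, KLHL9 ranged from 4.31 to 7.19 FPKM over the 4 libraries, MIR31HG from 3.33 to 4.88, FOCAD from 2.18 to 2.94 and IFNE from 0.279 to 0.485. HACD4 was listed at 0 in 3 libraries and at 0.0159 in the other. The low values therefore covered CDKN2A, CDKN2B-AS1 and CDKN2B together, with more RNA from the nearest listed genes on both sides. None of the 5 tested neighbours was called, and the smallest adjusted p from limma was 0.249.

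**Figure D2:**
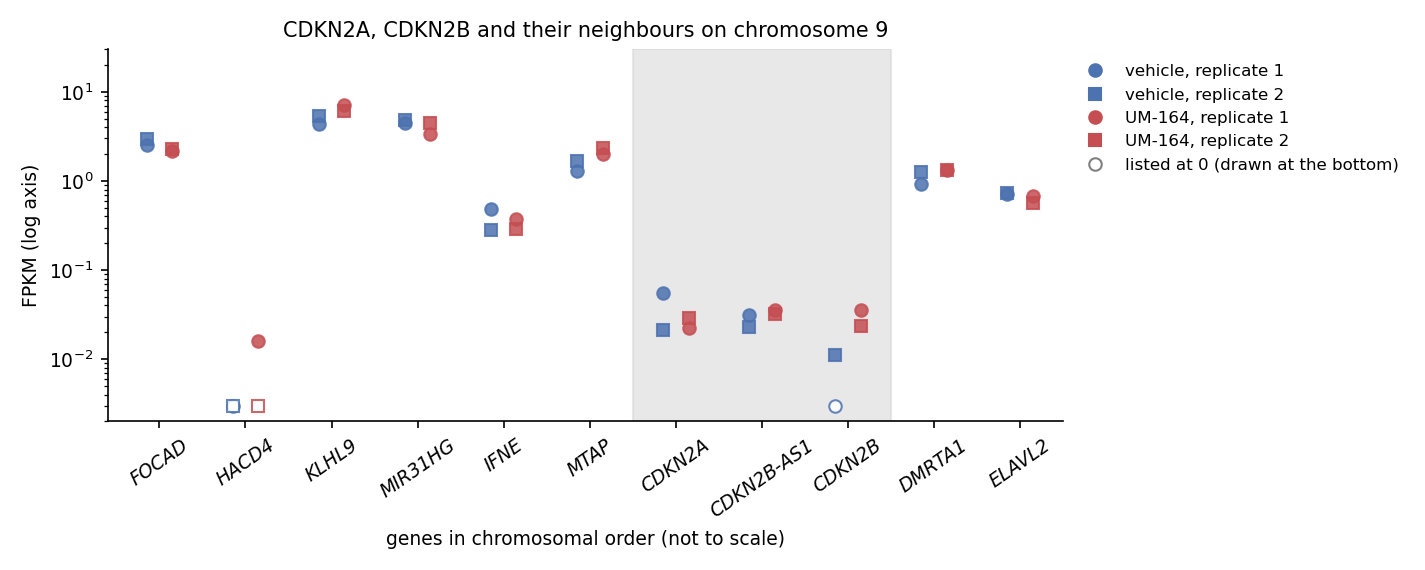
FPKM of CDKN2A, CDKN2B and listed neighbours in each library, on a log axis, with genes in the order in which they lie on chromosome 9 and not spaced to scale. The shaded genes CDKN2A, CDKN2B-AS1 and CDKN2B stay below 0.06 FPKM, while MTAP and DMRTA1 on either side lie between 0.92 and 2.4 FPKM.

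The protein-coding genes nearest to the other low members were looked up after these values had been seen. CDKN2C lies on chromosome 1 from 50960745 to 50974633. FAF1, a gene for a FAS-associated factor that ends 0.482 kb before it, had 0.0864 and 0.0186 FPKM in vehicle and 0.145 and 0.0244 in UM-164 libraries. RNF11, 261.6 kb beyond CDKN2C, had 11.0 and 11.5 FPKM in vehicle and 22.9 and 11.7 in UM-164 libraries, whereas TTC39A next to it stayed below 0.03. The low values of CDKN2C were thus shared by FAF1 next to it. Around CDKN1C the nearest listed gene on each side was low as well. SLC22A18AS, 2.007 kb away, had 0.216 to 0.532 FPKM over the 4 libraries, and KCNQ1, 34.1 kb away on the other side, stayed below 0.04. On the side of SLC22A18AS, in the same imprinted region, SLC22A18, 13.95 kb away and so nearer than KCNQ1, had 2.41 to 3.52 FPKM. PHLDA2 on that side, 42.5 kb away, had 44.2 to 50.6, and TSSC4, 479.3 kb away beyond KCNQ1, had 4.32 to 7.83. The RNA does not show which of these genes are present in the genome of the line, and genomic copy number was not analysed here.

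RB1 (ENSG00000139687) encodes the retinoblastoma protein, the pocket protein that binds the activating E2F factors. It lies on chromosome 13 from 48303726 to 48599436. Its FPKM was 4.10 and 6.07 in vehicle and 4.77 and 4.90 in UM-164 libraries. Both UM-164 libraries fell between the vehicle libraries. The log2 fold change was -0.04 (standard error 0.20, 95% interval -0.55 to 0.46, adjusted p = 0.921 from limma), and its sign depended on which vehicle library was kept, at -0.30 without vehicle replicate 1 and 0.21 without vehicle replicate 2.

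RBL1 (ENSG00000080839) encodes p107 and RBL2 (ENSG00000103479) encodes p130. Both pair with the repressor factors E2F4 and E2F5, p130 mostly in resting cells and p107 mostly in cycling cells, and p130 forms the DREAM complex with the MuvB proteins. RBL1 lies on chromosome 20 from 36996349 to 37095995 and had 3.59 and 4.52 FPKM in vehicle and 3.67 and 2.54 in UM-164 libraries. The groups overlapped, and only UM-164 replicate 2 was below both vehicle libraries. Its log2 fold change was -0.35 (standard error 0.21, 95% interval -0.88 to 0.18, adjusted p = 0.410 from limma). RBL2 lies on chromosome 16 from 53433977 to 53491649 and had 3.70 and 4.53 FPKM in vehicle and 5.17 and 5.16 in UM-164 libraries. The groups did not overlap, and the UM-164 libraries were nearly equal. Its log2 fold change was 0.30 (standard error 0.14, 95% interval -0.05 to 0.66, adjusted p = 0.306 from limma), and 84.1% of tested genes had a lower fold change. AKTIP on the opposite strand, at a mean of 2.12 FPKM, shares 8.33% of the exon bases of RBL2, and the sources used here do not say whether counting used strand. The means of RBL1 and RBL2 thus differed from vehicle in opposite directions, with neither past the test and the RBL1 libraries overlapping. Of the promoter sequences above only that of RBL1 holds the E2F letters, and a link to its RNA level was not tested.

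**Figure D3:**
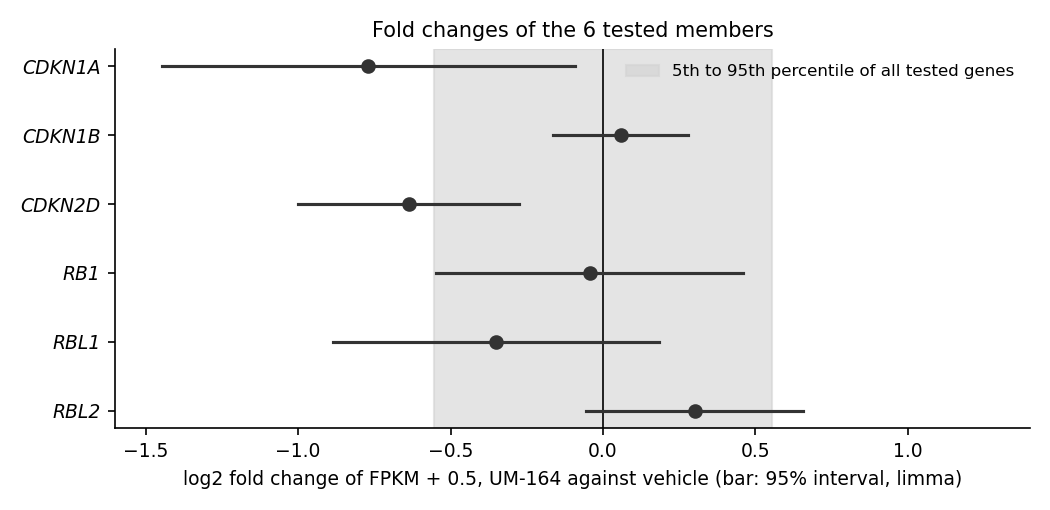
Log2 fold change of FPKM + 0.5 in UM-164 against vehicle libraries for the 6 tested members, with 95% intervals from limma, over the range that holds the middle 90% of all tested genes (-0.56 to 0.55, grey). CDKN1A and CDKN2D lie below that range with intervals below 0, and the intervals of CDKN1B, RB1, RBL1 and RBL2 include 0.

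Ratios of 2 genes within a library do not depend on how the libraries were scaled. The log2 ratio of RBL1 to RBL2 was -0.04 and -0.00 in vehicle and -0.50 and -1.02 in UM-164 libraries. The FPKM of RBL1 and RBL2 was thus nearly equal in vehicle libraries, and that of RBL2 was higher in both UM-164 libraries. The log2 ratio of RB1 to RBL2 was 0.15 and 0.42 against -0.12 and -0.07. That of CDKN1A to CDKN1B was 1.89 and 1.60 against 0.50 and 1.32, so p21 RNA remained above p27 RNA in all 4 libraries. The ratio of CDKN2D to CDKN1B, added after its values had been seen, was 0.55 and 0.17 in vehicle and -0.33 and -0.37 in UM-164 libraries. Its sign therefore differed between the groups. Inhibitors were also set against a kinase or cyclin they act on. CDKN1B over CDK2 had log2 ratios of 0.03 and 0.24 in vehicle and 0.88 and 0.47 in UM-164 libraries, where CDK2 went from a mean of 19.1 to 13.8 FPKM and did not pass the test. CDKN2D over CDK4 had -1.91 and -1.83 against -2.48 and -2.41, with CDK4 at 84.2 to 114 FPKM over the 4 libraries. CDKN1A over CCND1, the cyclin D1 gene, had -0.41 and -0.87 against -0.77 and -0.06, and these libraries overlapped. CDKN2C was too low for its planned ratios to CDKN2D and CDK6 to be read, and both overlapped between the groups. The ratios are given as a description, with no test. Several share a gene and are not independent, and how often ratios of other genes fail to overlap was not computed.

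**Figure D4:**
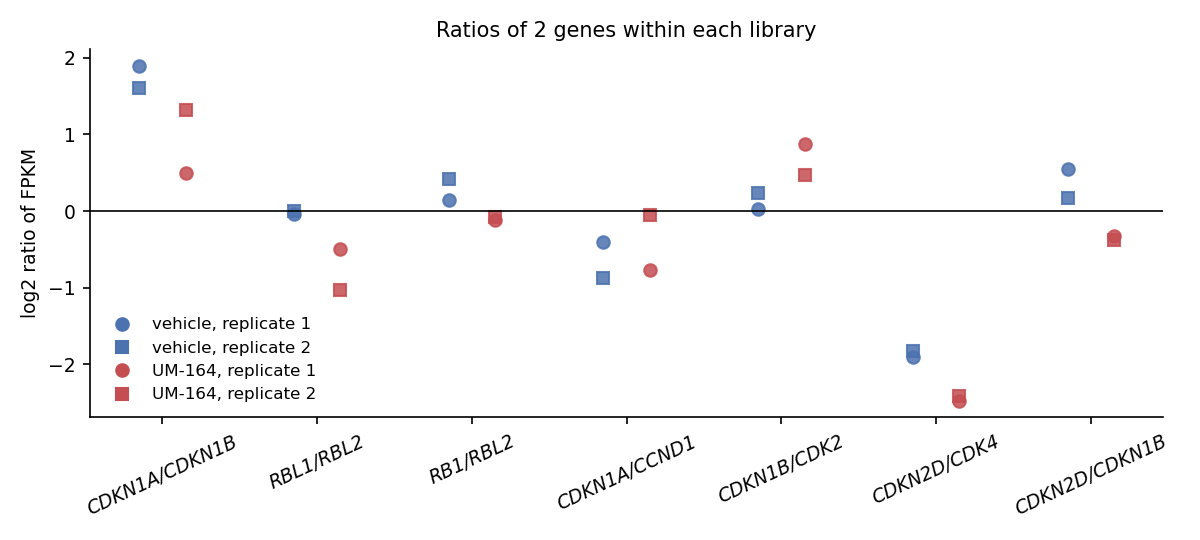
Log2 ratio of FPKM of 2 genes in each library, vehicle in blue and UM-164 in red, with 0 marking equal levels. RBL1/RBL2, RB1/RBL2, CDKN1A/CDKN1B, CDKN2D/CDK4 and CDKN2D/CDKN1B are lower in both UM-164 libraries, CDKN1B/CDK2 is higher, and CDKN1A/CCND1 overlaps between the groups.

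The genes around these members were counted in fixed lists, which share some genes. CCNE1 and CCNE2 of the cyclin list and E2F1 of the factor list are also counted among the E2F target genes. Among 8 tested cyclins and kinases of G1 and S phase, CCND1 was lower (log2 fold change -0.997, adjusted p = 0.0256 from limma) and none was higher. CDK4, CDK6 and CDK2, the targets of the inhibitors, stood at -0.08, -0.35 and -0.47 on the log2 scale, none of them past the test. Among 9 E2F and DP factors, the partners of the pocket proteins, none was called, 7 fold changes were below 0, and E2F1 went from 103 and 93.2 FPKM in vehicle to 65.6 and 65.8 in UM-164 libraries (adjusted p = 0.0600 from limma). Among 7 genes of the MuvB core and its MYB and FOXM1 partners, MYBL2, the gene of B-MYB, which p130 with MuvB represses in resting cells, fell by 0.74 on the log2 scale (adjusted p = 0.0407 from limma) and none rose. Over 24 E2F target genes of the G1/S transition, which the pocket proteins restrain, none was called higher or lower. An unadjusted p under 0.05 from limma was found for 17 of them, against 20.1% of all tested genes. But 23 had both UM-164 values under both vehicle values, where 25.5% of the tested table did. The median log2 fold change of this list was -0.47. Of 20 late cell cycle genes of G2/M, UBE2C, PLK1, AURKA and TPX2, which act in mitosis, were lower at log2 fold changes of -0.92, -0.76, -0.66 and -0.72 (adjusted p = 0.0246, 0.0360, 0.0390 and 0.0451 from limma) and none was higher, with a list median of -0.43. In bulk RNA, fewer cells in S phase and mitosis and less of these RNAs per cell cannot be told apart. These lists were drawn up with earlier results of these libraries known, so their direction is not independent evidence. The 6 calls did not hold in each fit. Of these genes 0 kept the call when any single library was left out, with no filter on low values or with no variance trend, and 3 kept it by median-ratio scaling. Under quantile normalization CCND1 and TPX2 lost it (adjusted p = 0.0501 and 0.0596 from limma), and with the replicate number as a block AURKA did (adjusted p = 0.0545 from limma).

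Further lists held genes that control the members or the kinases. Their counts at an unadjusted p under 0.05 from limma stand beside 20.1% of all tested genes. Of 15 tested p53 targets other than CDKN1A none was called, with 3 at an unadjusted p under 0.05, 5 fold changes were below 0 and 10 above, and the median was 0.09. TP53I3, TP53INP1 and RRM2B had log2 fold changes of 0.48, 0.60 and 0.42, against -0.77 for CDKN1A, and MDM2, which p53 induces and which degrades p53, had 0.01. CDKN1A thus differed in sign from TP53I3, TP53INP1 and RRM2B, a difference that was not tested. It had the same sign as the 5 targets below 0. Of these, BAX at -0.18 and PPM1D at -0.13 had both UM-164 values below both vehicle values. Of 18 genes for transcription and chromatin factors that act on these inhibitors none was called, with 3 at an unadjusted p under 0.05 and a median of -0.06. MYC, which represses CDKN1A and CDKN2B through ZBTB17 (MIZ1), had 3.46 and 3.48 FPKM in vehicle and 1.58 and 1.61 in UM-164 libraries (log2 fold change -0.92, adjusted p = 0.0539 from limma). Of 13 genes for the turnover of inhibitor proteins none was called, with 3 at an unadjusted p under 0.05. SKP2, which targets p27, had 2.48 and 3.05 FPKM in vehicle and 4.34 and 3.61 in UM-164 libraries, and its cofactor CKS1B had 94.8 and 83.7 against 62.9 and 68.0. Neither passed, at adjusted p = 0.220 and 0.108 from limma. Of 7 genes for CDK-activating kinase and for kinases and phosphatases of CDKs none was called, with 3 at an unadjusted p under 0.05 and a median of -0.36. Genes of these lists that are named without a call, other than those of the ratios, were chosen after their values were seen.

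**Figure D5:**
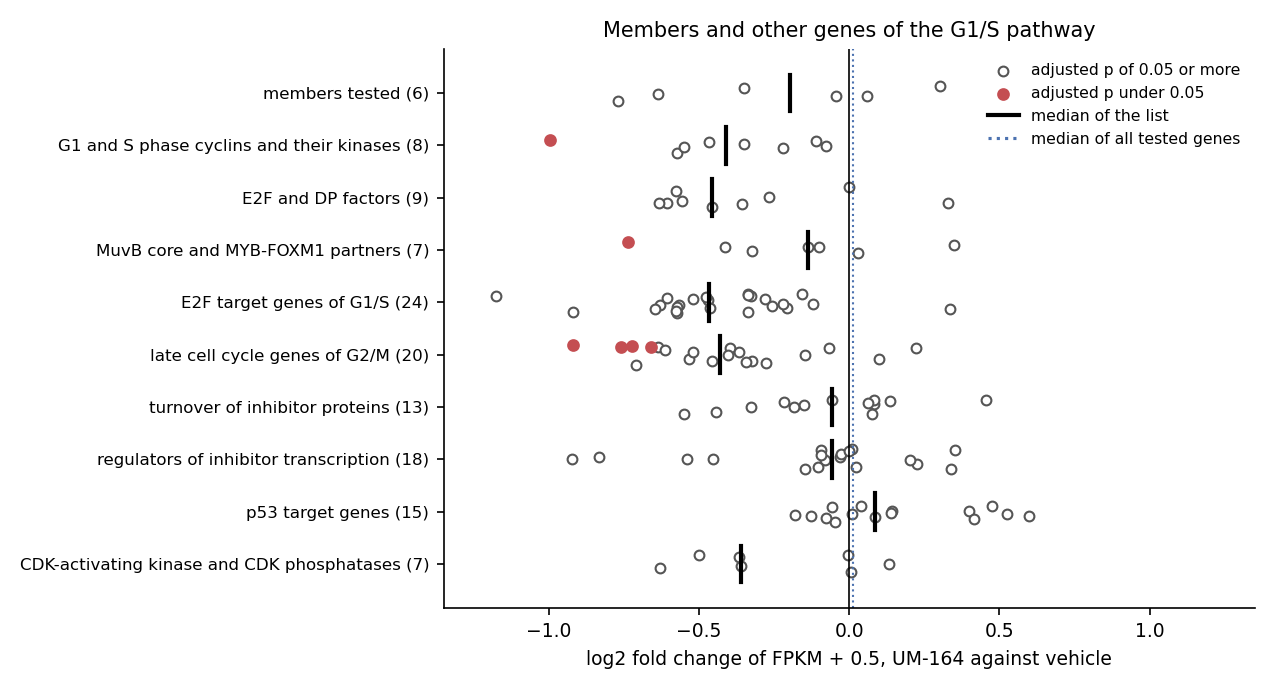
Log2 fold change of FPKM + 0.5 in UM-164 against vehicle libraries for the 6 tested members and for each list, with the number of tested genes in brackets, filled points for genes that limma called at 0.05 after adjustment, and a bar at each median. The members spread on both sides of 0 around a median of -0.20, while the E2F target genes and the G2/M genes centre at -0.47 and -0.43.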

How the data were processed

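Total RNA of LN229 cells was sequenced in 2 libraries per group, vehicle and UM-164. Per the submitters' processing notes, reads were trimmed with cutadapt 1.9, checked with FastQC and placed on GRCh38, and the series text names HISAT2. The authors deposited FPKM per gene and library, for which the sources used here name no program or annotation. The table also holds fold changes and p-values of a comparison by the authors, which were not used.

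Members were matched by gene symbol. Genes averaging under 1 FPKM were left out, and log2(FPKM + 0.5) of the other 11516 was fitted with limma 3.58.1 in R 4.3.3, with treatment as the term, a variance trend on expression and Benjamini-Hochberg adjustment over all genes kept, called at 0.05. Read counts are absent, so DESeq2, which the methods name, was not run, and the depth per library is unknown. The fit was also run on data simulated from its own model, which does not show how well that model suits these libraries. The members and lists were chosen with earlier results of these data known. All 10 members are named, with called genes of each list, the chromosome 9 neighbours and the genes of the ratios. The alternatives changed the pseudocount to 0.1 or 1, removed the filter or raised it to 5 FPKM, scaled by median ratios, by quantiles or to the same sum of protein-coding genes, dropped the variance trend, or took out a library, and a last fit had the replicate number as a block. Tables were made with Python 3.11.15 and pandas 2.3.3, gene positions come from GENCODE v29, and promoter windows come from RefSeq.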

Additional observations from a re-analysis of the deposited data

How the results depend on the processing

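In each of the 13 alternatives 0 members were called higher and 0 lower. The direction of each tested member's fold change held in every alternative that tested it, other than RB1, which had a log2 fold change of 0.21 without vehicle replicate 2 and ran from -0.30 to 0.21 over the libraries left out. CDKN1A ran from -1.15 to -0.39 and CDKN2D from -0.81 to -0.46 over all alternatives, with adjusted p from limma of 0.0517 to 0.445 and 0.0556 to 0.302. Over the tested table, 52 genes were called higher and 99 lower. Without a filter these counts were 3 and 1, without a variance trend 22 and 28, and 96 and 227 with protein-coding genes rescaled to one sum, and 158 lower at a mean of at least 5 FPKM, and leaving out a library gave 4 to 45 higher and 0 to 70 lower. Of the pathway genes listed, 6 were called lower, against 0 with no filter and 0 with no variance trend. The count was 3 by median-ratio scaling, 12 at a mean of at least 5 FPKM and 16 with protein-coding genes rescaled. With no filter or no variance trend 0 of the 6 kept the call, and 3 kept it by median-ratio scaling. All 6 kept it at a mean of at least 5 FPKM and with protein-coding genes rescaled. Leaving out any single library ended these calls, as given above. The alternatives for these pathway genes were added after seeing the data, and the cause of these differences was not tested. With a library left out, the lone library of its group is taken to vary as the other group does. With the replicate block, 57 genes were called higher and 107 lower, 0 members and 6 pathway genes among them. Of those 6, 5 were called without the block, and AURKA was not kept (adjusted p = 0.0545 from limma). Same-numbered libraries did not deviate together (r = -0.06 across 11516 genes, which are not independent). With 2 libraries per group this single value cannot decide whether the numbers pair the libraries. FPKM holds no counts, so what depth limits is unknown, and the 4 members under 0.3 FPKM could not be compared.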
